A study of Mus musculus with 20 samples.

Results

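Hippocampal subfield identity genes are transcripts that mark single fields of the hippocampus, and 9 of the 24421 genes listed in every count table were described here: Prox1, C1ql2, Dsp and Tdo2 for the dentate gyrus, Wfs1, Fibcd1 and Spink8 for CA1, Amigo2 for CA2, and Zbtb20, which is shared by the CA fields and the dentate gyrus. They were chosen by symbol as a check of subfield composition, with earlier results of these data known. Each was followed through all 20 RNA-seq libraries. The libraries were made from the neocortex (NCX) and the hippocampus (HP) of mice aged 3 months, with 5 libraries for each genotype and region. All mice, the controls included, were homozygous for floxed App, Aplp1 and Aplp2 and had a mixed C57BL/6J and 129 background, and cTKO mice also carried the Camk2a-Cre transgene. Cre under this promoter acts in excitatory neurons of the forebrain after birth, so inhibitory neurons, glia and vessels of cTKO mice keep the App family. Mice of both sexes were used. Each genotype was represented by 5 mice, both regions being taken from them, so the replicates are animals.

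The hippocampal circuit runs from the granule cells of the dentate gyrus, through their mossy fibres, to CA3 and from there to CA1, with the small CA2 field between the last ones. Each field is built by its own transcription factors and keeps a set of marker genes in adult life, so that the summed level of such genes in whole tissue follows both the share of a field in the dissected piece and the activity of the genes in its cells. In bulk RNA, fewer cells of a type and less RNA per cell cannot be told apart. Levels are given as CPM (counts scaled to a common library size after TMM normalization).

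Total counts per library lay between 12169474 and 25331954, and 3 counts corresponded to 0.123 to 0.248 CPM, a floor that covers counting error only. As a check of the labels, App, Aplp1 and Aplp2 separated the genotypes in both regions without overlap, with log2 fold changes of -1.78 for App, -1.93 for Aplp1 and -1.25 for Aplp2 in HP and of -2.10, -1.92 and -1.60 in NCX. A list of 5 genes of embryonic tissue summed to 380 CPM in cTKO HP library 4 and to 618 CPM in cTKO NCX library 5, and to 0.862 to 3.08 CPM in the 18 others, so results that rest on these 2 libraries are given with and without them. Choroid plexus genes, 6 in the list, none at 0 in any HP library, summed to between 75.6 CPM (library 5) and 2693 CPM (library 3) in HP controls and to between 112 and 600 CPM in HP cTKO. Their part in the results below was not tested.

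The members were first set against NCX, to see whether the labelled tissues carry the field markers. In controls, 8 of the 9 members were higher in HP than in NCX, where 26.3% of the 14192 genes tested were higher. As the members were chosen as hippocampal markers, this count and that in cTKO are descriptions and not tests. Dsp, Tdo2 and Spink8 passed the filter on low counts in this fit only through the HP libraries. Desmoplakin, Dsp, a plaque protein of desmosomes, had the largest difference, with a log2 fold change of 7.01 ± 0.55 (SE) and only 2 to 16 counts in an NCX control library. Next came the secreted protease inhibitor Spink8 at 5.61 ± 0.52, the tryptophan-degrading enzyme gene Tdo2 at 5.44 ± 0.59 (6.09 without control NCX library 1) and the mossy fibre synapse protein gene C1ql2 at 4.55 ± 0.23. The CA1 gene Fibcd1, a receptor for acetylated glycans, had 3.79 ± 0.20. Prox1, the homeodomain factor that sets and maintains granule cell identity, had 2.75 ± 0.13. The adhesion protein gene Amigo2 reached 1.51 ± 0.15 and the zinc finger repressor gene Zbtb20 1.28 ± 0.33, the smallest of the 8, with a quasi-likelihood FDR of 0.00282. Wfs1, which codes for wolframin of the endoplasmic reticulum, was the exception: its level in HP was close to that in NCX, with a log2 fold change of -0.23 ± 0.19 and an FDR of 0.313.

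In cTKO, the same 8 members were higher in HP, where 25.8% of the genes tested were, and Wfs1 was lower in HP, as were 23.8% of the genes tested. The log2 fold changes were 4.77 ± 0.22 for C1ql2, 3.20 ± 0.13 for Prox1, 3.69 ± 0.58 for Tdo2, 5.06 ± 0.50 for Spink8, 3.52 ± 0.20 for Fibcd1, 1.84 ± 0.15 for Amigo2 and 1.52 ± 0.34 for Zbtb20. For Dsp it was 4.46 ± 0.46, and 5.81 without cTKO NCX library 5, a library with embryonic RNA that held 7.07 CPM of Dsp where the 4 other cTKO NCX libraries held 0.369 to 0.930 CPM. Wfs1 had -1.32 ± 0.19 with a quasi-likelihood FDR of 6.86e-06. Other genes of the field lists also separated the regions in controls: 5 of 8 further dentate genes, 3 of 5 further CA1 genes, 4 of 7 further CA2 genes, 4 of 6 CA3 genes, 2 of 3 hilar mossy cell genes and all 4 genes of the ventral hippocampus were higher in HP. The largest differences in these lists were those of the lactase gene Lct (4.92) for the dentate gyrus, Man1a (1.36) for CA1, Sostdc1 (2.82, and 2.11 without control HP library 3, the one with most choroid plexus RNA) for CA2, Bok (1.38) for CA3, the calretinin gene Calb2 (1.79) for mossy cells and the decorin gene Dcn (2.13) for the ventral hippocampus, all on the log2 scale. Of each list but that of the ventral hippocampus, 1 gene was lower in HP.

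**Figure D1:**
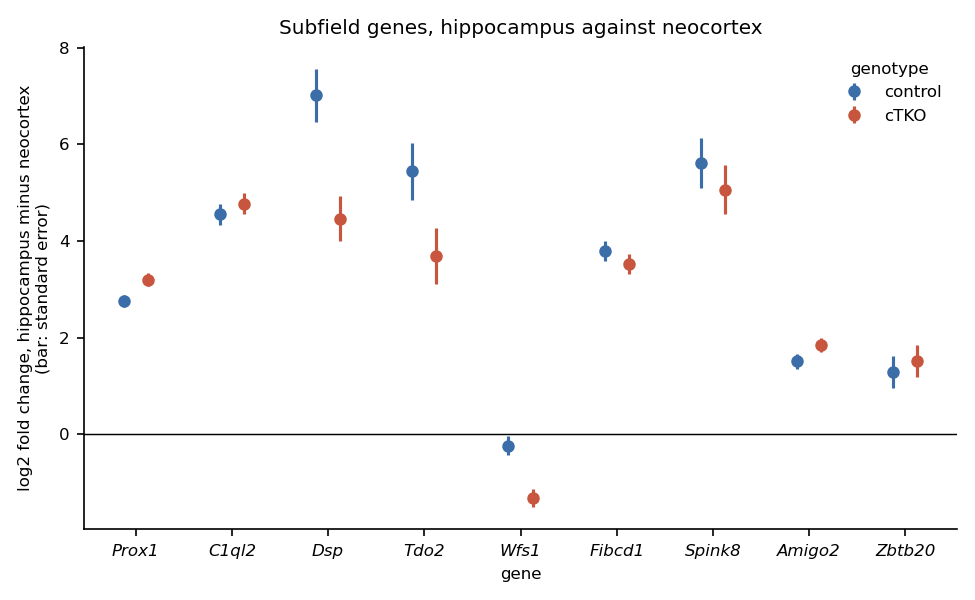
Log2 fold change between hippocampus and neocortex (vertical axis) of each member (horizontal axis), in controls (blue) and cTKO (red), with standard errors as bars from the fit of 20 libraries. Every member but Wfs1 lies above 0 in both genotypes, and Wfs1 lies at -0.23 in controls and at -1.32 in cTKO.

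Within HP, the genotypes were compared to ask whether subfield markers differed in cTKO. None of the 9 members passed an FDR of 0.05 by the quasi-likelihood test of edgeR, where 0.489% of the 13702 genes tested did. At an unadjusted p under 0.05 there were 5 of 9, against 12% of all genes tested. As the members were chosen with earlier results of these data known, this count is a description and not a test. C1ql2, Dsp and Tdo2, all markers of the dentate gyrus, were called by each of 3 other tests: the likelihood ratio test of edgeR, which called 1.89% of all genes, its exact test, which called 1.88%, and the Wald test of DESeq2, which called 2.42%. The median log2 fold change of the members was -0.15, and that of all genes tested 0.0049. These 3 genes did not share a direction, since C1ql2 had the higher mean in cTKO and Dsp and Tdo2 the lower.

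**Figure D2:**
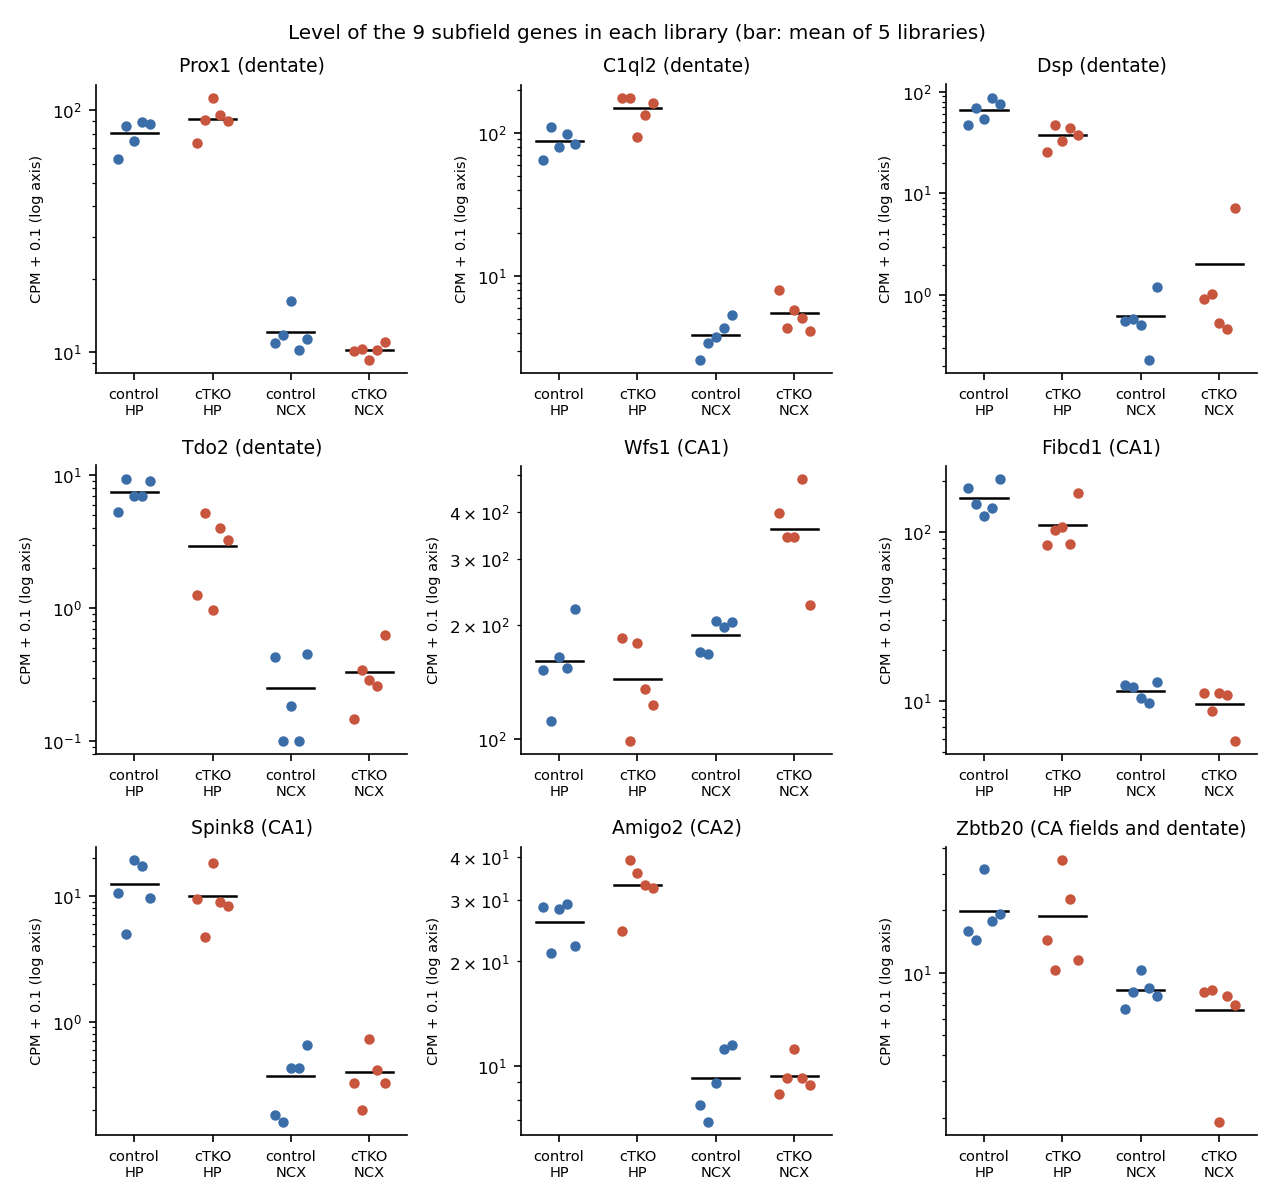
Level of each member in every library, as CPM + 0.1 on a log axis, for HP and NCX of controls (blue) and cTKO (red), with the mean of 5 libraries as a bar. In HP the Tdo2 libraries of the genotypes do not overlap, 4 of 5 cTKO libraries lie above all controls for C1ql2 and below all controls for Dsp, and in NCX all 5 cTKO libraries lie above the controls for Wfs1.

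For the 3 dentate genes with these differences, the promoter sequences from RefSeq on GRCm38.p6 are shown, from 250 bases before to 50 bases after the start of transcription, 5′ to 3′ on the strand of the gene. C1ql2 is on the plus strand at chr1:120340582-120343174, and its window is chr1:120340332-120340631. Dsp is on the plus strand at chr13:38151294-38198577, and its window is chr13:38151044-38151343. Tdo2 is on the minus strand at chr3:81957090-81976202, and its window is chr3:81975679-81975978. Capitals mark a match to the CCAAT box, here in its reverse form ATTGG.
C1ql2: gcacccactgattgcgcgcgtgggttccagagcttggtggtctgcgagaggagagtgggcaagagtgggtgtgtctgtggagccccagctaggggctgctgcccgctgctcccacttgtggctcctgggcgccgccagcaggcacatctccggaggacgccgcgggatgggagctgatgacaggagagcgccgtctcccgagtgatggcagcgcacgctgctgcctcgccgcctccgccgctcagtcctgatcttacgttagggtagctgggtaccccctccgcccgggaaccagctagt
Dsp: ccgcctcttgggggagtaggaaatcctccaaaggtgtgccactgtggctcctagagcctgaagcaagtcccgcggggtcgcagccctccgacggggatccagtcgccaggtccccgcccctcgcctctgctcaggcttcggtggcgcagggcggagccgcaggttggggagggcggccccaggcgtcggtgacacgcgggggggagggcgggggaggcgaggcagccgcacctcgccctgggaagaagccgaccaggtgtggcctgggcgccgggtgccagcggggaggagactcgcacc
Tdo2: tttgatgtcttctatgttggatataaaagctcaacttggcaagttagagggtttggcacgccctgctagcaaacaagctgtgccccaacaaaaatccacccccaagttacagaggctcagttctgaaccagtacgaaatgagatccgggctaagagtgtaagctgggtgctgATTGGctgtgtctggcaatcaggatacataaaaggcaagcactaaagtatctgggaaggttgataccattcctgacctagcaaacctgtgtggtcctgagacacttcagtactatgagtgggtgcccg
The windows of C1ql2 and Dsp are rich in G and C, with 67.3% and 73.0%, and that of Tdo2 is not, with 47.7%, where the median over 32851 promoters of the table was 52.7%. Both strands were searched for the cyclic AMP response element TGACGTCA, the E box CACGTG, the CCAAT box and the ER stress element, which itself holds a CCAAT box. Tdo2 had 1 match, a CCAAT box whose first base lay at -78 from the start. C1ql2 and Dsp had none of the 4. Of all promoters, 37.4% held a CCAAT box, 7.15% the E box, 1.79% the cyclic AMP response element and 0.119% the ER stress element. None of the 8 members with a promoter in the table held any of the last 3, and Spink8 had no entry.

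Prox1, on the minus strand at chr1:190118035-190170714, was measured at 62.9, 85.8, 74.8, 89.4 and 87.8 CPM in the 5 control HP libraries. In cTKO HP it was at 73.0, 90.9, 113, 95.1 and 89.8 CPM. Library 1 was the lowest of both genotypes, 4 cTKO libraries lay above all controls, library 5 by the smallest margin, and library 1 lay within their range. The means were 80.1 ± 11.2 (SD, n = 5) and 92.3 ± 14.2 CPM, a log2 fold change of 0.21 ± 0.12 (SE) with a quasi-likelihood FDR of 0.520 and p = 0.159 in a two-sided exact permutation test of log2 CPM. There are 252 ways to divide 10 libraries into 5 and 5, and the smallest p this allows is 0.00794. Antisense genes Prox1os and Gm28172 overlap Prox1, and whether counting was by strand is not given in the sources used here, so their reads cannot be told apart from those of Prox1.

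C1ql2 codes for a C1q-like protein that granule cells release at mossy fibre synapses, where it recruits kainate receptors. Control HP libraries 1 to 5 held 64.5, 109, 79.6, 98.7 and 83.2 CPM. The cTKO HP libraries held 176, 176, 93.3, 134 and 162 CPM. All of them but library 3 lay above the highest control, and library 3 lay inside the control range. The means were 87.0 ± 17.3 and 148 ± 35.2 CPM, with a log2 fold change of 0.77 ± 0.17, a 1.71-fold difference. The quasi-likelihood FDR was 0.0861, and the exact permutation test gave p = 0.0238. Without cTKO HP library 3 the log2 fold change was 0.90 and the FDR 0.0142, so that the gene was then called. Without cTKO HP library 4, which held embryonic RNA, the log2 fold change was 0.80 with an FDR of 0.0990.

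Desmoplakin anchors intermediate filaments to desmosomes, and in the brain Dsp is known as a marker of granule cells. Its levels in control HP libraries 1 to 5 were 46.5, 68.4, 53.6, 87.4 and 75.9 CPM. The cTKO HP libraries held 25.3, 47.0, 32.5, 43.8 and 37.4 CPM. Only cTKO library 2 reached into the control range, just above the lowest control. The means were 66.4 ± 16.6 and 37.2 ± 8.70 CPM, a log2 fold change of -0.83 ± 0.19 and 0.563 times the control level. The quasi-likelihood FDR was 0.0861, with p = 0.0159 in the exact permutation test. Without cTKO HP library 4 the log2 fold change was -0.90 with an FDR of 0.0845. Gm10129 overlaps Dsp on the other strand, and its reads cannot be told apart from those of Dsp either.

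Tdo2, tryptophan 2,3-dioxygenase, opens the kynurenine pathway of tryptophan breakdown and marks mature granule cells in the brain. The control HP libraries held 5.23, 9.34, 6.87, 6.86 and 8.91 CPM. In cTKO HP the values were 1.15, 5.09, 0.864, 3.88 and 3.18 CPM, from 21 to 117 counts. Every cTKO library was below every control, and libraries 1 and 3 were the lowest. Of all genes tested in HP, 3.01% did not overlap between the genotypes, and Tdo2 was the 1 member of 9 that did not. The means were 7.44 ± 1.68 and 2.83 ± 1.81 CPM, with a log2 fold change of -1.39 ± 0.39. The quasi-likelihood FDR was 0.165, and the exact permutation test gave p = 0.00794, the smallest it can give. Without cTKO HP library 4 the log2 fold change was -1.54 with an FDR of 0.156.

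The 8 other dentate genes also went both ways. Over the full list of 12 genes none was called by edgeR's quasi-likelihood test. An unadjusted p under 0.05 was seen in 2 with the higher mean in cTKO (C1ql2 and Trpc6). It was seen in 4 with the lower (Calb1, Dsp, Pdyn and Tdo2), where 12% of all genes tested had such a p. The median log2 fold change was 0.0083, close to the 0.0049 of all genes. The lowest p was that of Calb1, which codes for the calcium buffer calbindin, abundant in granule cells and also made in CA1 and by interneurons. It stood at 135, 150, 132, 154 and 178 CPM in control HP and at 98.3, 119, 92.3, 82.7 and 121 CPM in cTKO HP, with no overlap. Its log2 fold change was -0.54 ± 0.11 with an FDR of 0.0568, and -0.60 with an FDR of 0.0292 without cTKO HP library 5. Without cTKO HP library 4, which held embryonic RNA, it was -0.48 with an FDR of 0.0819. With any other library left out the FDR also stayed above 0.05, up to 0.148 without control HP library 4. Between regions in controls Calb1 was not called, with a log2 fold change of 0.25 and an FDR of 0.0511.

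Pdyn and Trpc6 were added after their values were seen, to complete this count. Pdyn, which codes for the precursor of dynorphin peptides of the mossy fibres, stood at 10.03 to 15.03 CPM in control HP and at 3.90 to 9.67 CPM in cTKO HP, and the genotypes did not overlap. Its log2 fold change was -0.95 ± 0.24 with a quasi-likelihood FDR of 0.122. In controls Pdyn was the dentate gene called lower in HP than in NCX, at -0.63 with an FDR of 0.00976. Neither Pdyn nor Calb1 was thus called higher in HP in controls, unlike Dsp and Tdo2. The cation channel gene Trpc6 had 20.5 to 25.3 CPM in controls and 23.7 to 37.6 CPM in cTKO, a log2 fold change of 0.41 ± 0.12 with an FDR of 0.171. Lct, the dentate gene outside the members that set HP furthest from NCX, differed little between genotypes, at 47.6 and 46.1 CPM on average, with a log2 fold change of -0.04 ± 0.27 that turned to 0.16 without cTKO HP library 1.

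**Figure D3:**
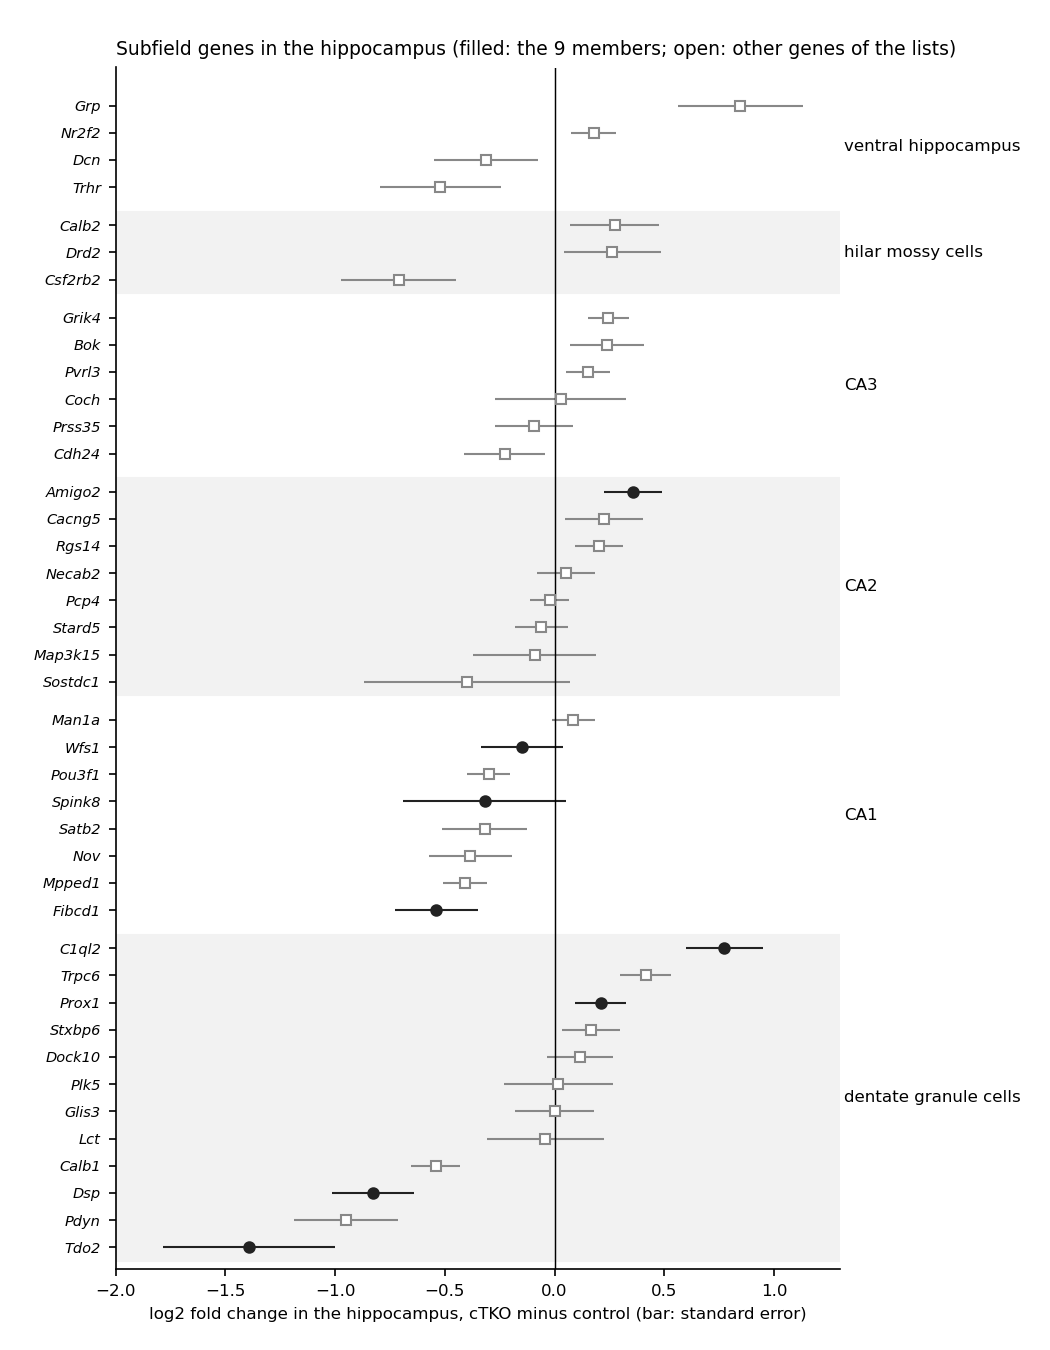
Log2 fold change in the hippocampus between cTKO and control (horizontal axis) of the members (filled circles) and of the other genes on the field lists (open squares), grouped by field, with standard errors as bars. The dentate genes spread from -1.39 for Tdo2 to 0.77 for C1ql2, while 7 of 8 CA1 genes lie below 0.

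As the same dissection supplies all dentate genes of a library, the 11 others on the dentate list were also divided by Prox1 of that library, a scale chosen after the values were seen and given as a description. Dsp stood at 0.717 to 0.978 times the CPM of Prox1 in control HP and at 0.289 to 0.517 times in cTKO HP, so that the overlap seen in CPM was no longer there. On this scale 4 of the 11 did not overlap between the genotypes, as did 2.65% of the genes tested, and these 4 were lower in cTKO. Of them, Tdo2, Calb1 and Pdyn did not overlap in CPM either. Prox1 itself had the higher mean in cTKO HP, 92.3 against 80.1 CPM. A gene at the same CPM in both genotypes would thus have a lower mean ratio in cTKO, which limits what the shared direction can show. Tdo2 had ratios of 0.0768 to 0.109 in controls and of 0.00767 to 0.0560 in cTKO. Calb1 had 1.73 to 2.15 in controls and 0.820 to 1.35 in cTKO, and Pdyn 0.134 to 0.175 and 0.0488 to 0.106. C1ql2 had 0.947 to 1.27 in controls and 0.828 to 2.40 in cTKO, with library 3 below all controls and the 4 others above them. Trpc6 overlapped, with 0.242 to 0.341 in controls and 0.268 to 0.359 in cTKO, and so did Lct, Stxbp6, Dock10, Glis3 and Plk5, each with a wider range in cTKO than in controls.

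**Figure D4:**
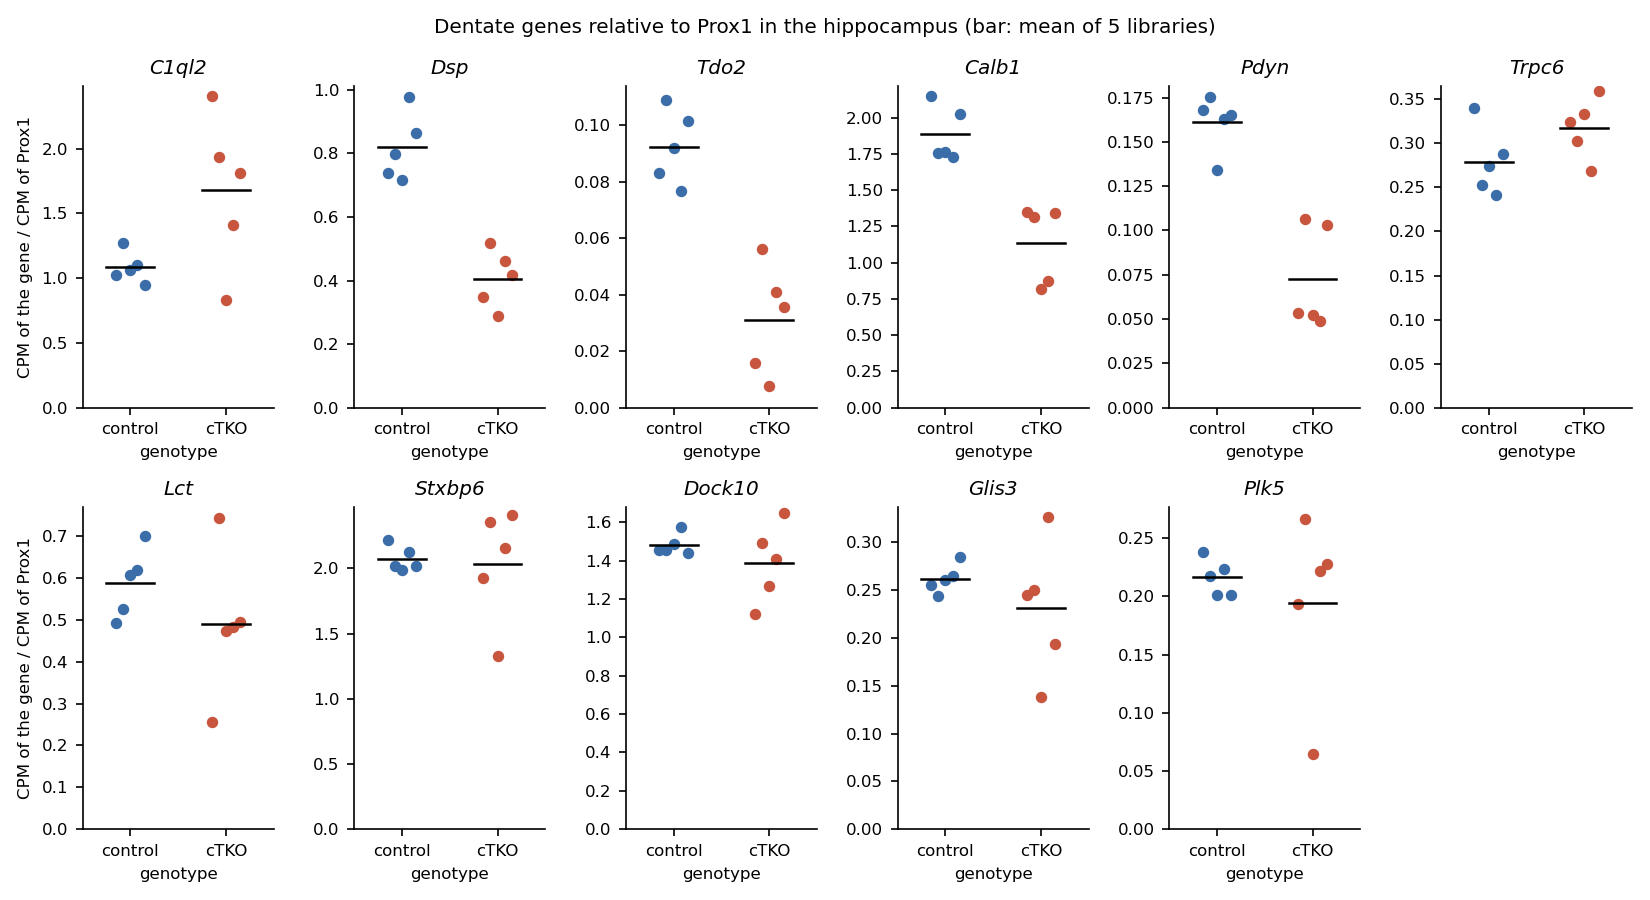
CPM of the 11 other genes on the dentate list divided by the CPM of Prox1 in the same hippocampal library (vertical axis, from 0), in controls (blue) and cTKO (red), with the mean of 5 libraries as a bar. The genotypes are apart for Dsp, Tdo2, Calb1 and Pdyn, for C1ql2 4 cTKO libraries lie above the controls and 1 below, and the 6 others overlap.

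Of the CA1 members, Fibcd1 differed most. It lies on the minus strand at chr2:31813290-31846005. Control HP libraries 1 to 5 held 182, 145, 124, 139 and 206 CPM, and cTKO HP libraries held 83.9, 103, 106, 84.8 and 168 CPM. The first 4 cTKO libraries were below every control, while library 5 lay inside the control range and stood apart from its group. The means were 159 ± 33.9 and 109 ± 34.6 CPM, with a log2 fold change of -0.54 ± 0.19, a quasi-likelihood FDR of 0.279 and p = 0.0476 in the exact permutation test. Without cTKO HP library 5 the log2 fold change was -0.75 with an FDR of 0.0339, and without library 4 it was -0.47 with an FDR of 0.370.

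Spink8, on the plus strand at chr9:109812280-109826633, is known from dorsal CA1. Its levels were 10.5, 4.92, 19.3, 17.2 and 9.54 CPM in control HP and 9.29, 4.62, 18.1, 8.85 and 8.28 CPM in cTKO HP. The groups overlapped almost fully, library 2 being lowest and library 3 highest in each genotype. The log2 fold change was -0.32 ± 0.37 with a quasi-likelihood FDR of 0.806.

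Wfs1 in HP was at 152, 111, 164, 154 and 221 CPM in controls and at 184, 98.5, 180, 135 and 123 CPM in cTKO. The libraries were interleaved, with means of 160 ± 39.2 and 144 ± 37.0 CPM. The log2 fold change of -0.15 ± 0.19 had a quasi-likelihood FDR of 0.824. No gene of the 8 on the CA1 list was called. On this list 3 had an unadjusted p under 0.05, all with the lower mean in cTKO, against 12% of all genes tested. A negative log2 fold change was seen in 7 of 8, and the median was -0.32, against 0.0049 over all genes tested.

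The lowest p on the CA1 list was that of Mpped1, at 238 to 313 CPM in control HP and 161 to 234 CPM in cTKO HP without overlap. Its log2 fold change was -0.41 ± 0.10 with an FDR of 0.116. Without cTKO HP library 4, which held embryonic RNA, it was -0.34 with an FDR of 0.110. Between regions in controls Mpped1 was not called, at 0.12 with an FDR of 0.282. The transcription factor gene Pou3f1, named after its values were seen because it completes the count of 3, had -0.30 ± 0.10 with an FDR of 0.241. Man1a, a Golgi mannosidase gene and the non-member with the largest regional difference on the list, had 0.09 ± 0.10. Most of the CA1 genes are also expressed in neocortical layers. Genes of the neocortical layer list, 8 in all and none at 0, summed to 184 to 220 CPM in control HP and to 131 to 192 CPM in cTKO HP. Of these layer genes 0 were called, and 2 of 8 had an unadjusted p under 0.05, against 12% of all genes tested. Both had the lower mean in cTKO, and the median of the list was -0.22. The part of adjoining neocortex in the CA1 values was not tested.

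Amigo2, an adhesion protein with leucine-rich repeats that outlines CA2, is on the minus strand at chr15:97244125-97247287. It had 28.7, 21.1, 28.3, 29.1 and 22.1 CPM in control HP and 24.3, 39.2, 35.9, 33.2 and 32.5 CPM in cTKO HP. Of the cTKO libraries, 4 lay above all controls and library 1 among them. The means were 25.9 ± 3.92 and 33.0 ± 5.54 CPM, with a log2 fold change of 0.36 ± 0.13, a quasi-likelihood FDR of 0.301 and p = 0.0794 in the exact permutation test. The 7 other CA2 genes had a median of -0.02, none with a p under 0.05. The lowest p among them was that of the signalling scaffold gene Rgs14, at 0.20 ± 0.11 with an FDR of 0.497, and Sostdc1 had -0.40 ± 0.47. The sign of the latter rests on control HP library 3, which held 15.6 CPM where the 4 others held 2.31 to 5.83 CPM, and which had the highest choroid plexus sum, and without it the value was 0.32. Pced1b overlaps Amigo2 on the other strand.

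Of 6 CA3 genes none was called and the median was 0.09. The kainate receptor subunit gene Grik4 had the lowest p, with 0.24 ± 0.09 and a quasi-likelihood FDR of 0.315, and Bok had 0.24 ± 0.17. Of 3 mossy cell genes none was called, the cytokine receptor gene Csf2rb2 whose means were 2.07 CPM in control HP and 1.27 CPM in cTKO HP, having -0.71 ± 0.26 with an FDR of 0.304, and Calb2 0.27 ± 0.20. Of 4 genes of the ventral hippocampus none was called and the median was -0.07. The gastrin-releasing peptide gene Grp had 0.85 ± 0.29 with an FDR of 0.252, in which cTKO library 1 held 106 CPM and the 4 others 34.5 to 48.9 CPM against 24.2 to 34.2 CPM in controls, and Dcn had -0.31 ± 0.24.

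Zbtb20 represses genes of other cortical areas in developing hippocampal neurons and is also made by astrocytes. It spans chr16:42875881-43642602 on the plus strand. Control HP libraries held 15.9, 14.3, 31.6, 17.7 and 19.2 CPM, and cTKO HP libraries held 14.2, 10.2, 35.0, 22.7 and 11.4 CPM. Library 3 was the highest of both genotypes and the ranges overlapped. The log2 fold change was -0.07 ± 0.32 with a quasi-likelihood FDR of 0.968, and its sign turned when any of 4 libraries was left out. Choroid plexus genes summed to 2693 CPM in control library 3 and to 141 CPM in cTKO library 3, and astrocyte genes, 6 in all and none at 0, to 2780 to 3578 CPM in control HP and 2712 to 5498 CPM in cTKO HP, highest in cTKO library 4. Of the 9 genes that overlap Zbtb20, several lie on the same strand.

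**Figure D5:**
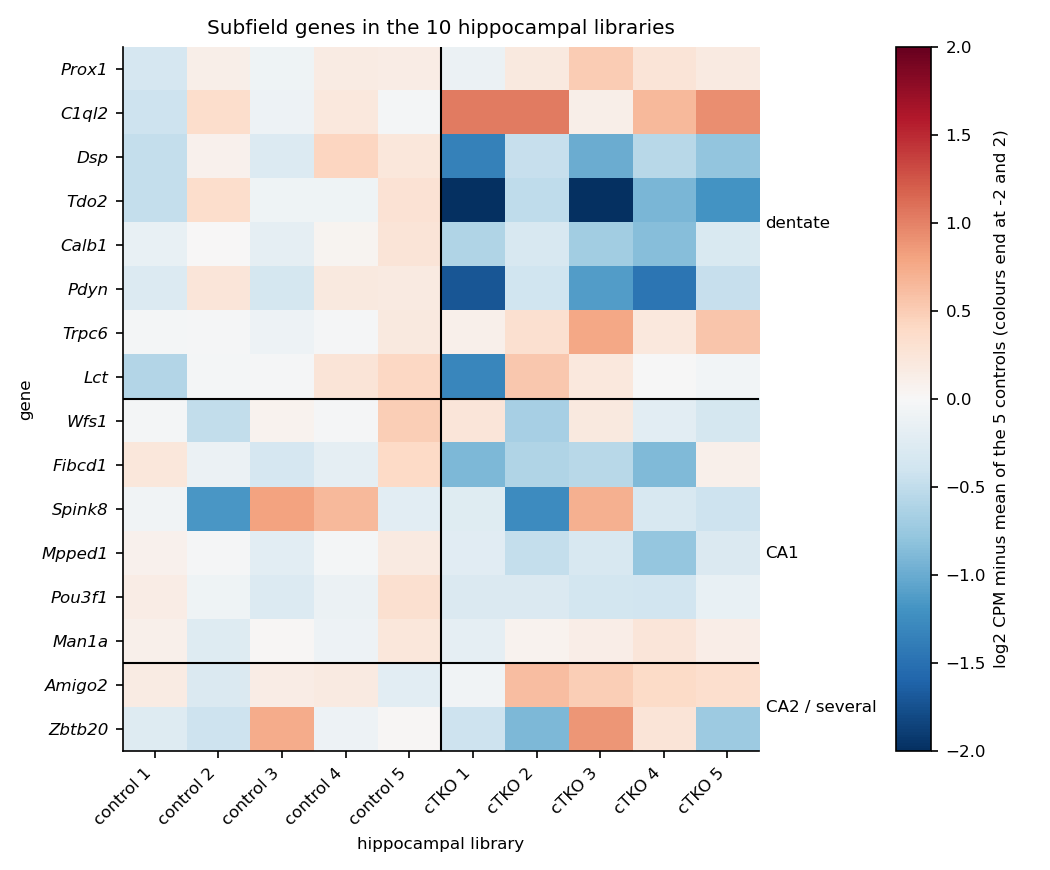
Log2 CPM of the members and of 7 other dentate and CA1 genes (rows) in the 10 hippocampal libraries (columns), minus the mean of the 5 controls, with red for higher and blue for lower values and colours that end at -2 and 2. C1ql2 is red in the cTKO libraries, faintly in library 3, and Dsp, Tdo2, Calb1 and Pdyn are blue in all 5.

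The balance between fields was followed in each HP library as the mean log2 CPM of the 4 dentate members minus that of the 3 CA1 members. It was -1.07, 0.20, -0.92, -0.58 and -0.68 in controls 1 to 5. In cTKO 1 to 5 it was -1.06, 0.29, -1.55, -0.28 and -0.61. Library 2 had the highest balance in both genotypes, and the genotypes overlapped over nearly the whole range. The means were -0.61 ± 0.49 and -0.64 ± 0.71 (SD, n = 5), a difference of -0.03, well below either SD. The dentate list of 12 genes summed to 639 to 903 CPM in control HP and to 674 to 940 CPM in cTKO HP, and the CA1 list of 8 to 835 to 1160 CPM and 614 to 860 CPM. The balance is a sum over genes that differed in opposite directions, which limits what it can show.

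In NCX, 6 of the 9 members passed the filter on low counts, and Dsp, Tdo2 and Spink8 did not. Wfs1 was the 1 of these 6 with an FDR under 0.05 in edgeR's quasi-likelihood test, where 0.188% of the 13843 genes tested were called, and 2 of 6 had an unadjusted p under 0.05, against 10.4% of all genes. The Wfs1 promoter, on the minus strand at chr5:36988933-36989232, is shown because this is the called member, with capitals as above. The gene lies at chr5:36966104-36989205.
Wfs1: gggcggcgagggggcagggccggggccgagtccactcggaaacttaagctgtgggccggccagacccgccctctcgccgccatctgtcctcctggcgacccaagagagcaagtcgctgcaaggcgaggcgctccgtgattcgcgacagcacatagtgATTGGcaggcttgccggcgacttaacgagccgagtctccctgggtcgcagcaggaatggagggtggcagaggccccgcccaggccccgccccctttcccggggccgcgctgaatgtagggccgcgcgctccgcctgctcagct
The window had 1 match, a reverse CCAAT box whose first base lay at -93 from the start, and held neither the ER stress element nor the other 2 motifs.

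Wolframin sits in the membrane of the endoplasmic reticulum, where it takes part in calcium handling and the stress response, and Wfs1 is strong in CA1 and in upper layers of the neocortex. Control NCX libraries held 169, 167, 205, 198 and 204 CPM. The cTKO NCX libraries held 397, 343, 342, 490 and 227 CPM. All cTKO libraries were above all controls, and library 5, which held embryonic RNA, was the lowest of them. Wfs1 was the 1 of 6 members that did not overlap, as did 2.39% of the genes tested. It rose from 189 ± 18.7 to 360 ± 95.7 CPM (mean ± SD of 5 libraries), and the log2 fold change was 0.94 ± 0.15 with a quasi-likelihood FDR of 0.0307 and p = 0.00794 in the exact permutation test. The call was lost when any 1 of the 5 controls or cTKO library 1 or 2 was left out, with log2 fold changes of 0.80 to 1.06 and FDRs of 0.000375 to 0.120 over all 10 such fits. Without cTKO library 5 it was 1.06 with an FDR of 0.000375. Genes of the neocortical layer list summed to 318 to 340 CPM in control NCX and to 297 to 325 CPM in cTKO NCX, with 0 of 8 called and a median of -0.01. An unadjusted p under 0.05 was seen in 2 with the higher and 1 with the lower mean in cTKO, against 10.4% of all genes. Log2 fold changes on this list ran from -0.27 to 0.67. The list holds Rorb, Rspo1, Fezf2, Foxp2, Ctgf, Nxph4, Tshz2 and Deptor. Whether these genes follow the upper layers, where Wfs1 is strong, was not tested.

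The other members in NCX stayed under the threshold. C1ql2 had 2.503, 3.34, 3.64, 4.25 and 5.28 CPM in controls and 7.86, 4.26, 5.75, 5.01 and 4.06 CPM in cTKO, with a log2 fold change of 0.53 ± 0.23 and an FDR of 0.433. Prox1, which interneurons of the neocortex also express, had means of 11.99 ± 2.43 and 10.1 ± 0.611 CPM and a log2 fold change of -0.24 ± 0.12. For Fibcd1, Amigo2 and Zbtb20 the log2 fold changes were -0.26 ± 0.16, 0.03 ± 0.15 and -0.30 ± 0.28, with FDRs of 0.611, 0.972 and 0.770 in edgeR's quasi-likelihood test. Dsp stood at 0.131 to 1.11 CPM in controls and 0.369 to 7.07 CPM in cTKO, Tdo2 at 0 to 0.347 and 0.0452 to 0.526 CPM, and Spink8 at 0.0596 to 0.556 and 0.0979 to 0.625 CPM. In both genotypes the last 3 were low, at 0 to 19 counts in a library, except for the 94 counts of Dsp in cTKO NCX library 5.

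Whether a genotype difference itself differed between the regions was tested by the interaction in 1 fit of 20 libraries. None of the 9 members passed an FDR of 0.05 by the quasi-likelihood test of edgeR, where 0.0564% of all genes did, and 3 had an unadjusted p under 0.05, against 3.75% of all genes. The log2 difference of Wfs1, HP minus NCX, was -1.09 ± 0.27 with an FDR of 0.286, and the likelihood ratio test of edgeR, which called 0.183% of all genes, called it as the 1 member, while DESeq2 called none. Dsp had -2.55 ± 0.81 with an FDR of 0.702, and -1.21 without cTKO NCX library 5. Prox1 had 0.45 ± 0.17, and C1ql2, whose mean was higher in cTKO in both regions, 0.22 ± 0.31.

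Per kilobase of merged exons in GENCODE M21, the members could be set beside each other in control HP. C1ql2 and Wfs1 were at the top, with 43.5 ± 8.67 and 42.3 ± 10.4 CPM per kb, followed by Fibcd1 with 33.5 ± 7.13 and Spink8 with 14.99 ± 7.18. The first pair did not differ beyond their spread. Prox1 with 9.55 ± 1.34, Amigo2 with 8.17 ± 1.24 and Dsp with 6.87 ± 1.71 CPM per kb came next. Of these, Amigo2 and Dsp differed by less than the SD of Dsp, while Prox1 and Amigo2 differed by slightly more than the SD of either. Tdo2 had 1.92 ± 0.433 and Zbtb20 0.641 ± 0.224 CPM per kb, the last over 30.7 kb of annotated exons, not all of which need be used in this tissue. In cTKO HP, C1ql2 stood at 74.1 ± 17.6, Wfs1 at 38.0 ± 9.78 and Dsp at 3.85 ± 0.901 CPM per kb.

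The genes with profiles most like Prox1 and Wfs1 over the 20 libraries were found by the root mean square difference of centred log2 CPM. For Prox1 they were Shisa6 (0.257), St18 (0.316) and Pcdh20 (0.318), where the median over 14191 genes was 1.502. Shisa6, an auxiliary protein gene of AMPA receptors, had 270 and 278 CPM in control and cTKO HP and 33.6 and 34.6 CPM in NCX, so it shared with Prox1 a steep regional difference and little difference between genotypes. For Wfs1 they were Ptprf (0.347), Kcna3 (0.361) and Rin3 (0.361), where the median was 0.642. Ptprf, a receptor phosphatase gene, had 78.1 and 89.2 CPM in HP and 113 and 147 CPM in NCX. The distance of Wfs1 to its nearest profile was larger than that of Prox1, although the median over all genes was smaller.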

How the data were processed

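RNA-seq of neocortex and hippocampus from cTKO mice and littermate controls was used, 20 libraries in all. The authors mapped reads to mm10 with STAR 2.5.4a, used HTSeq for counting and deposited 1 file of raw counts per library, by gene symbol. The annotation and strand setting of the counting are not given in the sources used here. All columns of the deposited counts were mapped to a sample by its label, and 0 were left out.

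Genotypes were compared within each region and regions in 1 fit of 20 libraries that takes no account of regions sharing mice, with edgeR 4.0.16 in R 4.3.3. After a filter (CPM above 1 in 5 or more libraries) and TMM scaling, glmQLFit and glmQLFTest were used. P-values were adjusted by Benjamini-Hochberg over all genes tested, and an FDR under 0.05 was a call. SE is the absolute log2 fold change over the square root of F. Exact permutation tests, two-sided, used log2 CPM with a prior count of 2. The procedure was tested on simulated data.

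The members and the 17 marker lists were chosen with earlier results of these data known. Named were all members, the targeted genes, and, for each field list, genes at an FDR under 0.05 between genotypes, otherwise the non-member with the lowest p between genotypes in HP and that with the largest difference between regions, and the 3 nearest profiles of Prox1 and Wfs1. Alternatives were the likelihood ratio and exact tests, DESeq2 1.42.0, DESeq2 size factors, no filter, filterByExpr, Xist as a covariate, other sets of libraries, the library number as a block, and each library left out. Leaving out both libraries with embryonic RNA, leaving out libraries for the balance and for named genes of the lists, and the scale relative to Prox1 were chosen after seeing the data.

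Whether library numbers pair samples was checked by the correlation of deviations from group means. Across regions in controls, same-numbered libraries correlated at 0.129 to 0.334, and 5 of 5 HP libraries correlated best with their own number. Differently numbered libraries reached 0.151. The numbers were taken as pairs in controls, but this is inferred, as the sources used here do not state it. Across regions in cTKO 3 of 5 pairs, across genotypes in HP 1 of 5 and in NCX 3 of 5 were above 0.1, and these numbers were not taken as pairs. Across regions in cTKO, differently numbered libraries reached 0.575, where the highest same-numbered pair had 0.396. Positions are from GENCODE M21 on GRCm38, and promoters from RefSeq on GRCm38.p6, with entries for 8 of 9 members. Pvrl3 in the files is the Nectin3 of the CA3 list. Figures were drawn with matplotlib 3.10.9 in Python 3.11.15.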

Additional observations from a re-analysis of the deposited data

Results flagged for a closer look

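Groups of 5 libraries were searched for a highest or lowest library whose gap to its neighbour takes up more of the group's range than Dixon's critical value at the 95% level. Over the 36 groups of 9 members, 5 libraries stood apart. Chance gives about 1 in 20 groups only where values are independent and normally distributed. CPM at low counts need not be so and the groups share libraries, so the 5 cannot be read as an excess. For Fibcd1, cTKO HP library 5 held 168 CPM, where the next highest of its group held 106 CPM. For Dsp, cTKO NCX library 5, with embryonic RNA, held 7.07 CPM and the next 0.930 CPM. For Prox1, control NCX library 3 held 16.2 CPM and the next 11.6 CPM. For Zbtb20, control HP library 3, in which choroid plexus genes summed to 2693 CPM, held 31.6 CPM and the next 19.2 CPM. In the opposite direction, Zbtb20 in cTKO NCX library 3 held 1.81 CPM, where the 4 others held 6.91 to 8.17 CPM. No member's genotype difference was found to differ between regions by the quasi-likelihood interaction test.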

How the results depend on the processing

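In HP, the count of 0 called members became 3 with the likelihood ratio test, 3 with the exact test and 3 with DESeq2 (C1ql2, Dsp and Tdo2 in each), 1 with Xist as a covariate (C1ql2), 1 in the fit of all 20 libraries (C1ql2) and 1 with the library number as a replicate block (Dsp). It ranged from 0 to 1 when single libraries were left out. In NCX, the count of 1 became 0 with the replicate block, where Wfs1 had a log2 fold change of 0.91 and a quasi-likelihood FDR of 0.0655, and ranged from 0 to 1 with single libraries left out. For the interaction, the count of 0 became 1 (Wfs1) with the likelihood ratio test. The block for the controls, whose pairing is inferred, changed none of their 8 calls between regions. That in cTKO, where the numbers were not taken as pairs, changed none of its 9. Between regions, the counts kept to 8 in controls, and in cTKO were 9, or 8 where Tdo2 was under the filter in the fit of 10 libraries.

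Signs turned only in members without a call and only when single libraries were left out: Zbtb20 in HP ranged from -0.43 to 0.17, turning without control library 3 (0.17) or cTKO library 1 (0.0084), 2 (0.08) or 5 (0.06). Amigo2 in NCX ranged from -0.064 to 0.12, turning without control library 1 (-0.04) or 2 (-0.064) or cTKO library 3 (-0.04), and Zbtb20 in the interaction from -0.12 to 0.47, turning without cTKO HP library 3 (-0.12). The difference in balance ranged from -0.04 to 0.21 with Wfs1 left out, the median or a prior count of 0.5, and from -0.26 to 0.20 with single libraries left out. Of 368 values of members under the other alternatives, 354 kept their sign and side of the threshold, 13 passed it and 1 fell short of it. The causes were not tested.

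Depth limits Dsp, Tdo2 and Spink8 in NCX, where each was below the floor of 3 counts in some libraries. With 5 mice a group a difference that misses the threshold does not show equal levels.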

Other observations

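The lists of other cell types, which belong to no comparison above, gave no gene with an FDR under 0.05 between genotypes in HP by edgeR's quasi-likelihood test. In parts of the lists, genes had an unadjusted p under 0.05, as 12% of all genes tested in HP did. Of 6 genes of forebrain excitatory neurons, 2 did with the higher and 1 with the lower mean in cTKO, and the median log2 fold change was 0.02. Of 4 genes of inhibitory neurons, 2 did with the higher mean, and the median was 0.19. They summed to 900 to 1119 CPM in control HP and to 917 to 1184 CPM in cTKO HP, with overlap. Of 6 astrocyte genes, 1 did with the higher mean, at 1.58, the highest of the list, while the median was -0.07. Of 4 genes of thalamus, 2 did with the lower mean, and the median was -0.16. Of 6 oligodendrocyte genes, 1 did with the higher mean, and the median was -0.06. Of 5 genes of endothelium, 1 did with the lower mean, and the median was -0.18. Of the 4 of 6 striatal genes tested, 1 did with the lower mean, and the median was 0.04. Of 6 microglial genes none did, and the median was -0.03. Of 6 choroid plexus genes, 3 did with the lower mean, and the median was -1.66. They summed to 2693 CPM in control HP library 3, where the next highest control, library 2, held 489 CPM. In cTKO HP they summed to 112 to 600 CPM, with overlap. How far the median rests on control library 3 was not tested. Among 5 embryonic genes, 1 passed the filter in HP, with 5.10, and it rests on cTKO HP library 4.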
